A study of Mus musculus with 4 samples.

Results

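The genes described here are 10 members of the Notch pathway in HT-22, an immortalised mouse hippocampal line: the receptors Notch1, Notch2 and Notch3, the ligands Jag1 and Jag2, the nuclear factors Rbpj and Maml1, and the targets Hes1, Hey1 and Heyl. They were found by symbol, and all 10 were among the 25050 genes of the deposited table. The set was chosen by its proposers with the normalised reads of these 4 libraries, and the differences between the groups, already known. RNA was sequenced from 2 libraries of wild type cells and 2 libraries of cells labelled as overexpressing Nsmce1, a RING-domain component of SMC5/6, a complex of chromosome maintenance, all at passages 21 to 24. The study's description also speaks of an inducible Nsmce1 with uninduced cells as controls, so the controls are given both as wild type and as uninduced. No label names an inducer, a time or separate cultures, so the spread between libraries may be technical. The comparison asked how gene expression in the overexpressing cells differs from that in the controls.

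Notch receptors are single-pass membrane proteins that bind Jagged or Delta-like ligands on a neighbouring cell. Binding lets ADAM proteases and then gamma-secretase cut the receptor, and the released intracellular domain joins the DNA-binding protein RBPJ and a Mastermind-like coactivator to switch on Hes and Hey genes. In the nervous system the pathway is known for holding neural progenitors undifferentiated, and gamma-secretase also cuts the amyloid precursor protein.

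The libraries held 25787452 to 44602989 reads, and 15540 genes with a mean of at least 10 normalised reads were tested with limma. Nsmce1 itself stood at 1108 and 1206 normalised reads in the wild type pair against 17851 and 16525 in the overexpressing pair, as the labels say. The label of hippocampal neuron had support from few of its listed markers. Of 15 neuronal markers 9 were matched and 4 passed the minimum, with Dcx, Stmn2, Nefm, Slc17a7 and Prox1 below it. Those that passed were Syn1 (mean 1129 normalised reads), Tubb3 (563), Camk2a (57.4) and Syp (12.1). The 9 summed to 1541 to 1948 normalised reads in a library, of which Syn1 made up 63.6%. The 9 fibroblast markers summed to 307681 to 384922, of which Col1a2 made up 51.0%, with Lum below the minimum. Of the 10 mural cell markers, a cell class in which Notch3 is well known, 8 were matched and Pdgfrb made up 88.4% of their sum, with Myh11, Cnn1 and Mcam below the minimum. Summed markers parted with the groups for astrocytes (5124 to 5195 in wild type and 6503 to 6796 in overexpressing libraries, 6 of 8 matched) and for microglia and leukocytes (1970 to 2338 and 1643 to 1787, 7 of 8 matched), but in each list a single gene made up most of the sum and other members lay the other way. Of the astrocyte sum 63.7% was Slc1a3, while 2 of the 4 tested members lay below 0 (Aldh1l1 at -2.14 and Aldoc at -1.14 on the log2 scale) and the list's median was -0.48. Of the microglial sum 91.7% was Tmem119, at -0.38, while Cd68 stood at 0.54. Their part in the values below was not tested. In bulk RNA, fewer cells of a type and less RNA per cell cannot be told apart.

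Of the receptors only Notch2 was abundant, with both nuclear factors near its level and with scarce ligands and targets. On the scale of mean normalised reads per kilobase of annotated exon, the order of levels was Notch2 (591 ± 49.5), Rbpj (491 ± 47.1), Maml1 (436 ± 5.0), Jag1 (41.8 ± 11.6), Hey1 (33.3 ± 10.1), Jag2 (8.0 ± 1.99), Hes1 (4.69 ± 1.44), Notch3 (2.57 ± 1.16), Notch1 (2.26 ± 0.394) and Heyl (0.506 ± 0.625), each with the SD over the 4 libraries. Neighbours in this order whose ranges over the libraries overlapped were Notch2 and Rbpj, Jag1 and Hey1, Jag2 and Hes1, Hes1 and Notch3, and Notch3 and Notch1. Rbpj stood apart from Maml1, Maml1 from Jag1, Hey1 from Jag2, and Notch1 from Heyl. The length used was that of all annotated exons of a gene merged, 12.75 kb for Rbpj and 5.528 kb for Maml1. Without division by length their means were 6259 and 2412 normalised reads, so distances in this order depend on that length. The gap below Maml1 was the widest step in the order by ratio, from a lowest library of 433 to a highest of 53.3 for Jag1.

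**Figure D1:**
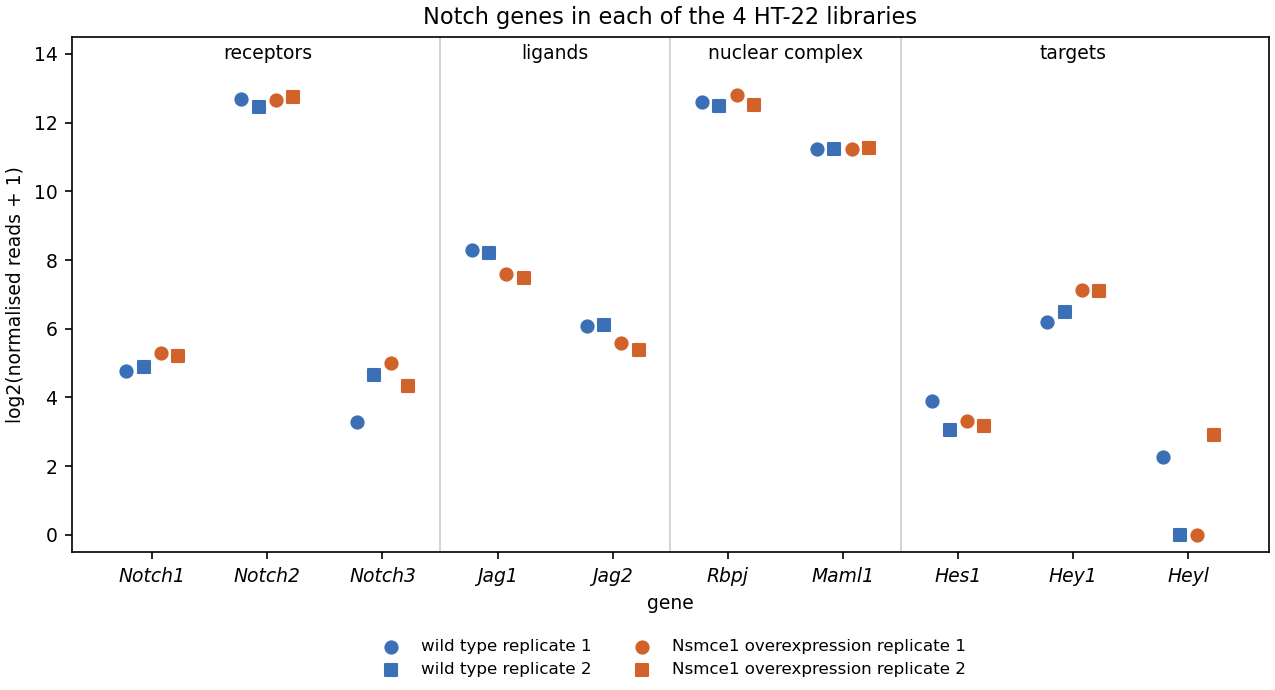
Level of the 10 Notch genes in each library, as log2(normalised reads + 1), with circles for replicate 1 and squares for replicate 2 of wild type (blue) and Nsmce1 overexpression (orange). Jag1 and Jag2 lie lower and Hey1 higher in both overexpressing libraries, while Notch2, Rbpj and Maml1 sit near the top with little distance between the groups.

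Because of that choice the differences of the 10 genes are described without a test. Of the 8 that passed the minimum, 0 were called (limma, Benjamini-Hochberg adjusted p under 0.05), where 0.193% of all genes tested were called, 0.103% as higher and 0.0901% as lower. For 5 of the 8 the groups did not overlap (3 higher and 2 lower), beside 39.1% of all genes tested. Hes1 and Heyl were below the minimum.

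Among the receptors, Notch2 (ENSMUSG00000027878, chromosome 3) carried nearly all the signal. Its level was 6596 and 5601 normalised reads in the wild type pair against 6487 and 6815 in the overexpressing pair. The groups overlapped, with wild type replicate 2 the lowest of the 4 libraries, and the log2 fold change was 0.13 (SE 0.0988). It was 0.012 without wild type replicate 2 and 0.25 without wild type replicate 1. Per kilobase, Notch2 made up 96.3% and 95.8% of the summed level of Notch1 to Notch4 in the wild type pair against 95.3% and 96.5% in the overexpressing pair, so its place among the receptors was alike in every library. The gene shares 541 bases of exon on the same strand with Gm42820, whose mean was 30.8 normalised reads. A stretch of the Notch2 promoter is shown because this receptor dominates the family. It spans positions -250 to -150 relative to the RefSeq start (GRCm38.p6, chr3:98013288-98013388, plus strand), and the capitals mark a match to the N-box CACNAG or its reverse complement CTNGTG, the element that Hes repressors bind.
Notch2: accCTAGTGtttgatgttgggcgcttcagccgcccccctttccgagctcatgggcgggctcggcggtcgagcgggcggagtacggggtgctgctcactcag

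Notch1 (ENSMUSG00000026923, chromosome 2), the receptor best known in neural progenitors, was near the lower limit of the libraries. Its level was 26.4 and 28.4 normalised reads in the wild type pair against 38 and 35.8 in the overexpressing pair, from 21, 27, 38 and 49 reads. Both overexpressing libraries lay above both wild type ones (log2 fold change 0.41, SE 0.313), and the exact 95% Poisson limits of the single libraries, scaled to normalised reads, were 16.3 to 40.4 and 18.7 to 41.4 in wild type and 26.9 to 52.2 and 26.5 to 47.3 in overexpressing cells. Each wild type range overlapped each overexpressing one, and such limits cover counting error of a single library only. Notch1 shares 1068 bases of exon with 0610009E02Rik on the opposite strand, whose mean of 27.6 normalised reads was close to its own 32.2, and no source used here says whether the counting used strand.

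Notch3 (ENSMUSG00000038146, chromosome 17), the receptor of vascular smooth muscle and pericytes, stood at 8.80 and 24.2 normalised reads in the wild type pair against 31 and 19.0 in the overexpressing pair. Its groups overlapped, and the low value of wild type replicate 1 set the difference: the log2 fold change was 0.69 (SE 0.583) over all libraries, 0.0036 without wild type replicate 1 and 1.37 without wild type replicate 2. In the RefSeq promoter windows of 300 bases (250 before and 50 after the start), the N-box was matched 3 times for Notch1, of which 2 matches overlap, 2 times for Notch3 and once for Notch2. It was matched in 42.5% of all 32851 windows.

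Both Jagged ligands had lower values in the overexpressing libraries, more clearly for Jag1 than for Jag2, and neither was called. Jag1 (ENSMUSG00000027276, chromosome 2), the more abundant ligand, stood at 311 and 292 normalised reads in the wild type pair against 193 and 178 in the overexpressing pair. The replicates of each group lay close together and the groups did not overlap, beside 18.3% of all genes tested that parted downwards. Its log2 fold change was -0.70 (SE 0.148), a level 1.62-fold lower, and 6.62% of all genes tested had a larger change in either direction. Leaving out any 1 library kept it between -0.75 and -0.64.

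Jag2 (ENSMUSG00000002799, chromosome 12) stood at 66.6 and 68.5 normalised reads in the wild type pair against 47 and 40.9 in the overexpressing pair. These groups did not overlap either, and the log2 fold change was -0.61 (SE 0.255), between -0.71 and -0.51 with any 1 library left out. Both ligands were lower by a similar factor, so their proportion stayed near the same: per kilobase, Jag1 made up 84.8% and 83.6% of the summed Jag1 and Jag2 in the wild type pair against 83.1% and 83.9% in the overexpressing pair. Set against Notch2 within the same library, which removes any scaling between libraries, the summed ligands per kilobase came to 10.3% and 11.5% of the receptor in wild type and to 6.63% and 5.76% in overexpressing cells. This ratio combines the values of Jag1, Jag2 and Notch2 already given and is no separate evidence.

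The promoters of the Jagged genes differed from each other in base composition. The 300-base window of Jag1 held 22 CpG dinucleotides at 55.7% GC and that of Jag2 63 CpG at 86.0% GC, against medians of 7 CpG and 52.7% GC over all windows. For Jag2, 99.97% of windows held fewer CpG, and for Jag1 76.9%. The windows of Notch1, Notch2, Notch3, Rbpj and Maml1 held 23 to 41 CpG, so Jag1 had the fewest and Jag2 the most of the 7 genes with a window. Neither window matched the RBPJ core TGGGAA (reverse complement TTCCCA) or the N-box, which says only that these letters are not in those windows. The stretch of Jag1, the more abundant of the ligands, spans positions -250 to -150 (GRCm38.p6, chr2:137116670-137116770, minus strand), with each CpG in capitals.
Jag1: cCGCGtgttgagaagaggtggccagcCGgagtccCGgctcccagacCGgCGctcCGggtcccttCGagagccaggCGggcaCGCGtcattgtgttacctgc

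**Figure D2:**
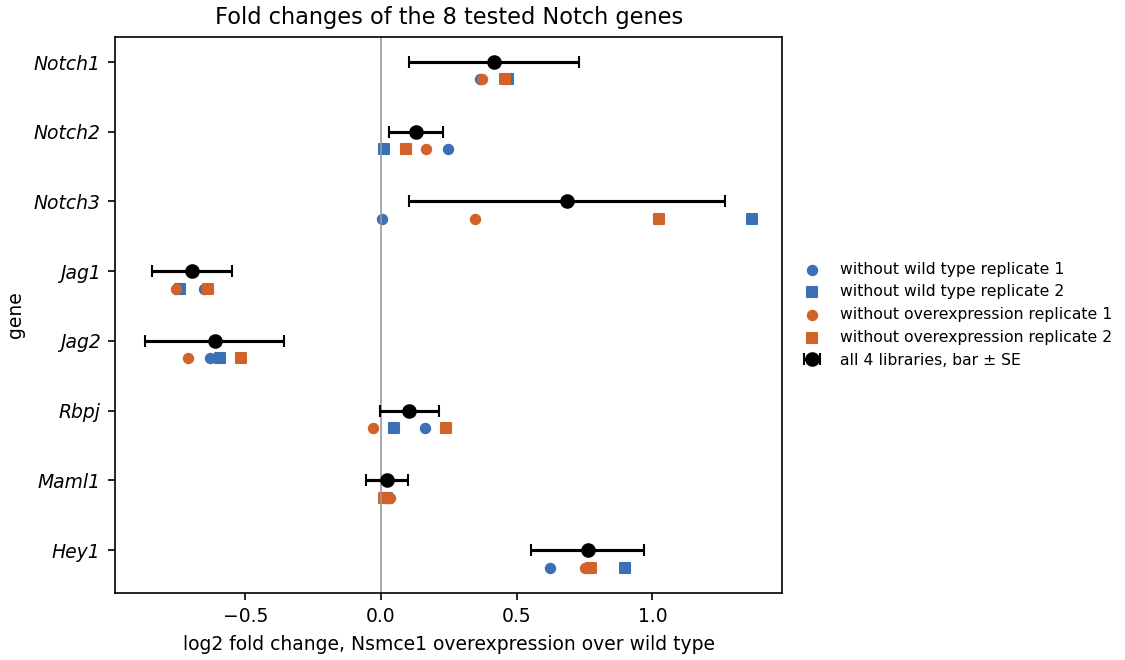
Log2 fold change of the 8 Notch genes tested, overexpression over wild type: black points with all 4 libraries and bars of 1 SE, coloured points with 1 library left out. The points of Jag1, Jag2, Hey1 and Notch1 stay on their side of 0, whereas Notch3 spreads from 0.0036 to 1.37 and Rbpj crosses 0. The groups of Jag1, Jag2, Hey1 and Notch1 do not overlap, so leaving out 1 library could not change their sign.

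The nuclear factors differed little between the groups. Rbpj (ENSMUSG00000039191, chromosome 5), the DNA-binding protein of the complex, stood at 6265 and 5775 normalised reads in the wild type pair against 7104 and 5892 in the overexpressing pair. The groups overlapped, with overexpression replicate 1 the highest library. The log2 fold change of 0.11 (SE 0.109) became -0.030 when that library was left out. Maml1 (ENSMUSG00000050567, chromosome 11), the Mastermind-like coactivator, stood at 2393 and 2394 normalised reads in the wild type pair against 2411 and 2452 in the overexpressing pair. It was the steadiest of the 10 genes, with a log2 fold change of 0.02 (SE 0.0775). Its groups did not overlap, with SDs of 0.554 and 29.0 normalised reads (n = 2 in each group).

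Of the genes with a RefSeq window, 7 of the 10, Rbpj was the only one whose windows matched the RBPJ core, which 25.6% of all windows hold. The window of its upstream start had 2 matches, which begin at positions -149 and -65, and the window of a start further downstream held the latter again. The stretch shown spans positions -200 to -140 of the upstream start (GRCm38.p6, chr5:53590146-53590206, plus strand) and shows the former match in capitals. A match is a description of the letters and not evidence of binding.
Rbpj: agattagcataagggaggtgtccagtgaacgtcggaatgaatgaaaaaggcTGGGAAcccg

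Of the targets Hes1, Hey1 and Heyl, only Hey1 passed the minimum for testing. Hey1 (ENSMUSG00000040289, chromosome 3), a basic helix-loop-helix repressor, stood at 72.9 and 88.5 normalised reads in the wild type pair against 138 and 136 in the overexpressing pair. Both overexpressing libraries lay well above both wild type ones, beside 20.8% of all genes tested that parted upwards. The log2 fold change was 0.76 (SE 0.207), a level 1.70-fold higher, and 5.68% of all genes tested had a larger change in either direction. It stayed between 0.62 and 0.90 with any 1 library left out. Hey1 and Jag1 differed in opposite directions, and within a library the ratio of Hey1 to Jag1 per kilobase was 0.419 and 0.541 in the wild type pair against 1.28 and 1.36 in the overexpressing pair. That ratio divides values already given and is no separate evidence either.

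Hes1 (ENSMUSG00000022528, chromosome 16), the classical Notch target of progenitor cells, was at the edge of detection in these cells. Its level was 13.8 and 7.37 normalised reads in the wild type pair against 9 and 8.03 in the overexpressing pair, and its mean of 9.56 lay just below the minimum for testing. These values rest on 11, 7, 9 and 11 reads. Scaled to normalised reads, their exact 95% Poisson limits were 6.91 to 24.8 and 2.96 to 15.2 in wild type and 4.12 to 17.1 and 4.01 to 14.4 in overexpressing cells, and no difference was detectable at this depth. Heyl (ENSMUSG00000032744, chromosome 4), the third target, had 3 and 0 reads in the wild type pair and 0 and 9 in the overexpressing pair. Each group held a library without a read, where the exact 95% Poisson limit is 3.69 reads, and the level cannot be compared.

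The wider pathway was read from 90 further genes listed by role, with earlier results of these data known. Of these, 83 were matched and 76 passed the minimum. None was called: 0 of 76 passed limma's adjusted threshold, and 11 had an unadjusted p under 0.05 (5 higher and 6 lower), where 7.92% of all genes tested did. With limma voom on the recovered reads the counts were 0 and 13, and with chromosome medians removed 0 and 9. In the latter fit 1078 of all 15503 genes had an unadjusted limma p under 0.05. Of the 76, 45 (59.2%) lay above 0 and the median was 0.04 on the log2 scale, beside 51.3% and a median of 0.0054 for all genes tested.

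**Figure D3:**
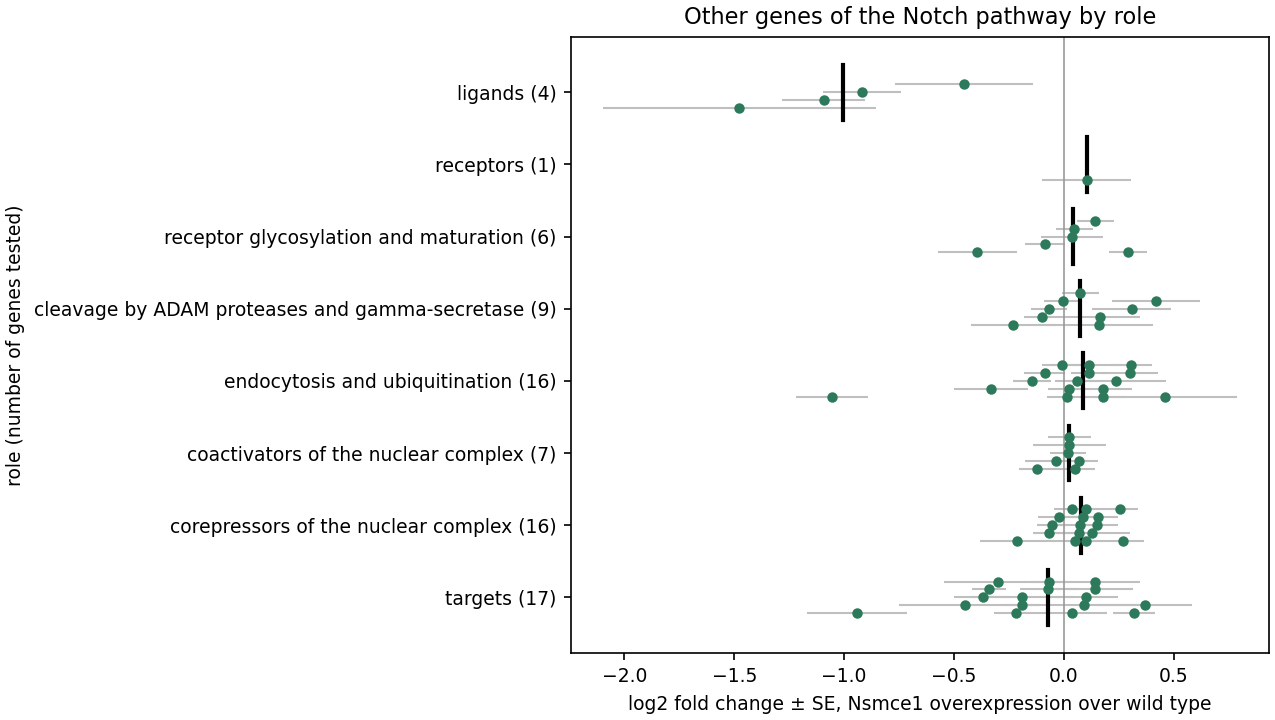
Log2 fold change of the 76 other pathway genes tested, by role, with bars of 1 SE and a black line at the median of each role. The ligands are the role whose tested members all lie below 0, from -1.48 to -0.45, while coactivators and corepressors of the nuclear complex cluster close to 0. The lowest ligand, Dner, had 18 and 15 reads in the wild type pair and 10 and 5 in the overexpressing pair.

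The 4 further ligands tested lay below 0 (median -1.01), where 51.3% of all genes tested lay above 0, and 0 of 4 were called. Dlk1, a Delta-like membrane protein that lacks the domain of the activating ligands, stood at 180 and 189 normalised reads in the wild type pair against 80 and 92.0 in the overexpressing pair (log2 fold change -1.09, SE 0.189, limma adjusted p = 0.160). Mfap5, a microfibril protein that can bind Notch ligands and receptors, had 685 and 687 in the wild type pair against 428 and 307 in the overexpressing pair (log2 fold change -0.92, SE 0.177, limma adjusted p = 0.203). The other tested ligands were Dner and Dlk2, at -1.48 and -0.45, named after their values were seen. Dll4, an activating Delta-like ligand, stood at 5.03 and 0 normalised reads in the wild type pair against 0 and 2.19 in the overexpressing pair, so of Jag1, Jag2 and Dll4 the 2 Jagged genes passed the minimum. Dll1 and Dll3 were looked up by symbol and not matched, so they have no value here.

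Of the machinery that makes, releases and clears receptors and ligands, the tested gene with the largest difference was Mib1. Mib1, the ubiquitin ligase that sends ligands into endocytosis in the signalling cell, stood at 4849 and 3501 normalised reads in the wild type pair against 1862 and 2110 in the overexpressing pair. The groups did not overlap, and the level was 2.08-fold lower (log2 fold change -1.06, SE 0.163), but it missed the threshold (limma adjusted p = 0.115). Among the 16 tested genes of endocytosis and ubiquitination 11 lay above and 5 below 0 (median 0.09), with Dtx3l, a Deltex-type ligase, at 0.31 (SE 0.0940, limma adjusted p = 0.489). Of 6 genes of receptor glycosylation and maturation 4 lay above 0 (median 0.04). Poglut1, which adds glucose to the receptor's EGF repeats, stood at 0.29 (limma adjusted p = 0.460) and Tm2d3 at -0.39 (limma adjusted p = 0.659). Tm2d3 shares 120 bases of exon on the same strand with Tarsl2, and Dtx3l 458 bases on the opposite strand with Parp9.

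The 9 tested cleavage genes divided into 5 above and 4 below 0 (median 0.07). Adam10, the protease that makes the ligand-dependent cut, stood at 6504 and 4120 normalised reads in the wild type pair against 7052 and 6796 in the overexpressing pair (log2 fold change 0.42, limma adjusted p = 0.678). The difference was 0.09 without wild type replicate 2, the lowest library, and 0.75 without wild type replicate 1. Aph1c, a gamma-secretase subunit, stood at 0.31 (limma adjusted p = 0.723). Notch4, the remaining receptor, stood at 167 and 144 normalised reads in the wild type pair against 189 and 147 in the overexpressing pair with overlapping groups (log2 fold change 0.10, limma adjusted p = 0.927). On the scale of mean normalised reads per kilobase its level was 20.1, above the 2.26 of Notch1 and the 2.57 of Notch3.

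Coactivators and corepressors of the RBPJ complex lay near 0. The 7 coactivators ranged from -0.12 to 0.07, with the acetyltransferases Kat2a at -0.12 (limma adjusted p = 0.767) and Crebbp at 0.07 (limma adjusted p = 0.869). Of 16 corepressors 12 lay above 0 (median 0.08), led by the deacetylase Hdac2 at 0.26 (limma adjusted p = 0.501) and by L3mbtl3, a repressor that binds RBPJ, at 0.27 (limma adjusted p = 0.563). Hdac2 and L3mbtl3 lie on chromosome 10 and Poglut1, Dtx3l and Crebbp on chromosome 16, where the median log2 fold changes of all tested genes were 0.14 and 0.17. After subtraction of the chromosome median they stood at 0.11, 0.12, 0.13, 0.15 and -0.090. Jag1, Jag2 and Hey1 lie on chromosomes 2, 12 and 3, and stood at -0.68, -0.65 and 0.73 after that step.

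Further genes listed as targets were mixed, with 7 of 17 above and 10 below 0 (median -0.07) and 0 called. Whether Notch drives any of them in these cells was not tested. Hes6, a Hes relative that opposes Hes1 and so is not a plain readout of the pathway, stood at 145 and 157 normalised reads in the wild type pair against 67 and 90.5 in the overexpressing pair (log2 fold change -0.94, SE 0.228, limma adjusted p = 0.350). Ccnd1, encoding cyclin D1, had 3002 and 2925 in the wild type pair against 2346 and 2330 in the overexpressing pair (log2 fold change -0.34, SE 0.0770, limma adjusted p = 0.303), and shares 1100 bases of exon with LTO1 on the opposite strand. Nrarp, a feedback inhibitor that Notch switches on, had 0 reads in the wild type pair and 0 and 2 in the overexpressing pair. Hes5 and Hey2 were also not matched by symbol.

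Hey1 and Hes6, neither of them called, had different shares of the summed Hes and Hey genes in the groups. Per kilobase, Hey1 made up 16.7% and 18.4% of the summed Hes1, Hes6, Hes7, Hey1 and Heyl in the wild type pair against 41.7% and 35.3% in the overexpressing pair. Hes6 made up 59.9% and 59.0% in the wild type pair against 36.5% and 42.5% in the overexpressing pair. Hes6 was the leading member in both wild type libraries and in overexpression replicate 2, and Hey1 in overexpression replicate 1. These shares combine the counts of Hey1 and Hes6 already given and are no separate evidence.

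**Figure D4:**
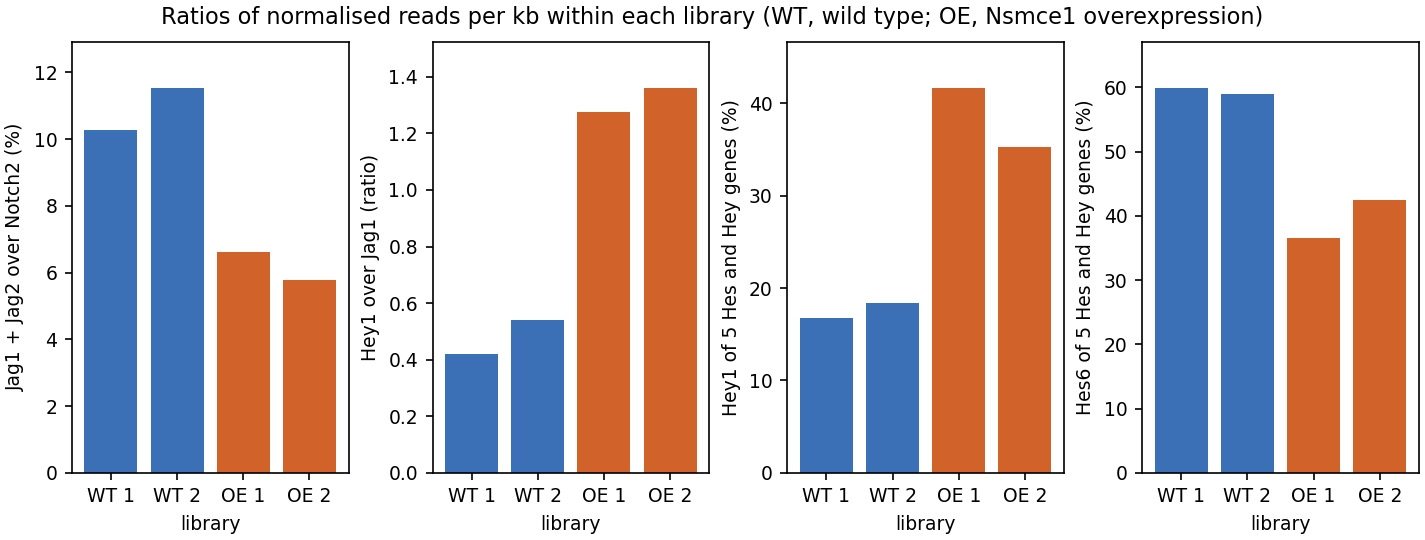
Ratios formed within each library from normalised reads per kilobase, in wild type (WT, blue) and Nsmce1 overexpression (OE, orange), with 1 bar per library. The ligand to Notch2 ratio is 10.3% and 11.5% in wild type libraries and 6.63% and 5.76% in overexpressing ones, and the Hey1 to Jag1 ratio is 0.419 and 0.541 in the wild type pair against 1.28 and 1.36 in the overexpressing pair. All ratios combine levels given in the text, divided by exon length, and are no separate evidence.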

How the data were processed

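The authors' deposited table gives every gene a log2 value in each library, which the numbers themselves show to be log2(normalised read count + 1). Per the submitters' processing notes, the tools were HISAT and Cufflinks and the genome mm9. How reads were assigned to genes is not given in those notes as used here. With the log2 undone, 100% of values were whole multiples of 1 step per library, which gave the whole reads. The tolerance was 0.001 read and widened in proportion to the count for high counts. Columns were matched to samples by name.

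The 10 genes and all lists were chosen with earlier results of these data known. limma 3.58.1 (R 4.3.3) with a mean-variance trend was fitted to the log2 values of all 4 libraries with group as the only term, two-sided, for genes with a mean of at least 10 normalised reads. The added 1 makes fold changes of low genes look smaller. An exact permutation test of a gene cannot go below p = 0.333 in this design, so calls rest on the variance pooled over genes (6.10 total degrees of freedom), and p-values reflect only the spread between libraries. The main fit and the trimmed-mean scaling were run on simulated counts. Planted differences were larger than those of the Notch genes tested, so recovery at their size is not known.

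Named pathway genes were the 2 with the smallest p in each role, any called gene, and 7 set by symbol. Kyat1, listed in error, was left out. Exon lengths, overlaps and chromosomes came from GENCODE M21 (GRCm38) and promoter windows from RefSeq (GRCm38.p6). Those builds differ from mm9, so promoter coordinates do not apply to the authors' alignment. Alternatives were 2 other pseudocounts, 2 other filters, quantile normalization, no trend, voom on the reads with trimmed-mean scaling, chromosome medians removed, a replicate block and each library left out.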

Additional observations from a re-analysis of the deposited data

How the results depend on the processing

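In all 13 alternatives 0 of the Notch genes and 0 of the other pathway genes tested were called. The count over all genes was less steady. Against 30 calls, limma gave 16 with no filter, 18 after quantile normalization, 9 without a trend and 60 with the replicate number as a block, and between 2 (without wild type replicate 1) and 75 (without overexpression replicate 2) with 1 library left out. In those fits the lone library is assumed to vary like the other group, and the cause of the differences was not tested. Same-numbered libraries did not deviate together (r = 0.0068 across genes) and form only 2 pairs, so the block is not taken as a pairing.

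Jag1, Jag2, Hey1, Notch1, Notch2, Notch3 and Maml1 kept their sign in every alternative in which they were tested. The other filters, the fit without a trend and the replicate block leave a gene's fold change as it was, so they could not change a sign. The groups of Jag1, Jag2, Hey1, Notch1 and Maml1 do not overlap, so another pseudocount or leaving out 1 library could not change their sign either. Rbpj changed sign without overexpression replicate 1. Notch4 ranged from -0.075 (without overexpression replicate 1) to 0.28 (without overexpression replicate 2) and was -0.0026 without wild type replicate 2, and Crebbp turned to -0.090 with chromosome medians removed. Depth limits Hes1, Heyl, Notch1 and Notch3, which had at most 49 reads in a library, and also Jag2, which had 47 to 65.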
